A study of Mus musculus with 4 samples.

Results

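The myosin and troponin isoforms are 10 genes that encode the exchangeable subunits of the cardiac contractile filaments: the myosin heavy chains Myh6 and Myh7, the light chains Myl2, Myl3, Myl4 and Myl7, the inhibitory troponins Tnni1 and Tnni3, and the tropomyosin-binding troponins Tnnt1 and Tnnt2. They were taken by gene symbol, 10 of 27267 genes, and the reads of their 21 transcript records were summed per gene. All 10 averaged 1 CPM or more over the libraries, as did 13502 genes in all, where CPM are read counts set relative to the library total and scaled by TMM. The cells were cardiomyocytes of CD1 mice at postnatal day 1, grown in culture. They were mock transfected, or given a microRNA mimic at 50 nM by reverse transfection: hsa-miR-590-3p, hsa-miR-199a-3p, or the nematode microRNA cel-miR-67 as a control. RNA was taken 72 h after transfection, and each condition had 1 library. No label names a genetic change in these cells, and none says how many animals or hearts went into a dish. The comparisons ask how the choice of sarcomere isoform stood under each of these microRNAs, which are known for their effect on cardiomyocyte proliferation.

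In striated muscle, myosin heads of the thick filament pull on actin, and calcium acts through troponin C, I and T on the thin filament. Several of these subunits come as alternative genes, and the heart exchanges them as it matures and between its chambers. In the mouse the slow heavy chain Myh7 gives way to the fast Myh6 around birth, Tnni1 gives way to Tnni3, the light chains Myl4 and Myl7 become restricted to the atria, and Myl2 and Myl3 mark the ventricle.

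The mature strand of mmu-miR-199a-3p, the mouse microRNA that carries the same name as one of the mimics, is shown as RefSeq gives it, 22 bases long, with its seed (bases 2 to 8) in capitals.
mmu-miR-199a-3p: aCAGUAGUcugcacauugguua

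Promoters are shown for the 4 genes on which the comparisons below turn: Myl4 and Tnnt1, the members lowest under the mimics, Myl7, the atrial light chain that stood higher, and Tnnt2, the partner of Tnnt1. Each is the 250 bases before a RefSeq start site (GRCm38.p6), read along the gene. Capitals mark the MCAT motif CATTCC on either strand, the motif of TEAD transcription factors in muscle promoters.
Myl4 promoter (chr11:104550413-104550662, plus strand): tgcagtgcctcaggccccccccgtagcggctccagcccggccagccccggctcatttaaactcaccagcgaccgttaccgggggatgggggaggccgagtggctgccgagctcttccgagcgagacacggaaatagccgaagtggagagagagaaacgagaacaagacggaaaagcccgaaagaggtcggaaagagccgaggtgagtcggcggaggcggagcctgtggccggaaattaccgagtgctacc
Tnnt1 promoter (chr7:4515976-4516225, minus strand): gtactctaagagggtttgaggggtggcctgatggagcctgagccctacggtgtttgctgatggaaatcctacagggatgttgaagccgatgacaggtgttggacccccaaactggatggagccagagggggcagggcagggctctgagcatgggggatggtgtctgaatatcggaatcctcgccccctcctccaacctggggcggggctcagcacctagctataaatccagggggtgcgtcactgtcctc
Myl7 promoter (chr11:5898783-5899032, minus strand): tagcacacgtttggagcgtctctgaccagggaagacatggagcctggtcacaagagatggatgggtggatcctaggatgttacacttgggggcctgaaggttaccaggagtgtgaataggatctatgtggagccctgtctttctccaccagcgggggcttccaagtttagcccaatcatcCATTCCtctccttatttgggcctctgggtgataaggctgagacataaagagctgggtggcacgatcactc
Tnnt2 promoter (chr1:135836084-135836333, plus strand): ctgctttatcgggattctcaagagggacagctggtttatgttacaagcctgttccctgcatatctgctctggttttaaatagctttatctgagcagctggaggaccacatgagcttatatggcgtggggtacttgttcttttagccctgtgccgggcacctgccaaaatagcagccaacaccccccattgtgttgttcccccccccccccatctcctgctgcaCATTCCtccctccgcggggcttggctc

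The MCAT letters lay 27 bases before the start site shown for Tnnt2, whose other window in the table held none, and 70 bases before it in Myl7, and the Myl4 and Tnnt1 windows held none. All 10 members matched the promoter table, with 14 windows, and 5 of those 14 held the motif (in Myh6, Myh7, Myl3, Myl7 and Tnnt2), against 12.6% of all 32851 windows of this length. The E-box CANNTG, counted on both strands and bound by many factors, lay in 13 of the 14 windows and in 66.2% of all. The Myl4 window was the exception. The GATA letters AGATAA lay in 2 windows (Myl2 and Tnnt2; 9.99% of all) and the TATA letters TATAAA in 2 (Myl2 and Tnnt1; 12.4% of all). The serum response element known as the CArG box lay in 2 (Myl3 and Myl7; 1.47% of all) and the MEF2 site in 0 (2.92% of all). The MEF2 and TATA letters can overlap. These matches describe the letters of the windows only.

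The libraries held between 31638930 and 38745528 reads, of which 67.6 to 68.7% were placed uniquely. The members took 4.36% of all reads in the mock library, 3.87% with cel-miR-67, 3.16% with hsa-miR-590-3p and 3.38% with hsa-miR-199a-3p. With 1 library per condition, no difference has a replicate check and no p-value was computed. Ratios carry exact 95% intervals for counting error, and PCR copies cannot be told from separate molecules here, so the true error is larger. Log2 ratios are on the scale of log2(CPM) with a prior count of 0.5 and are given against cel-miR-67 first and mock second. Both mimics were set against the same 2 control libraries, so their ratios are not independent of each other.

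Per transcript length, the members covered a wide range of abundance. In the mock library Tnnt2 had the highest level, 6398 RPKM (CPM without TMM, per kilobase), followed by Myl2 with 5768, Myh6 with 3207 and Myl3 with 2241 RPKM. Tnni3 and Myh7 were close together at 1402 and 1394 RPKM, and their order was turned in the cel-miR-67 library. Tnni1 had 694 RPKM, Myl4 639, Myl7 122 and Tnnt1 30.4 RPKM. Under both mimics Myl2 stood above Tnnt2 as the highest member. With hsa-miR-199a-3p Myl3 (2453 RPKM) also stood just above Myh6 (2356 RPKM). The ranks from Tnni1 down to Tnnt1 were the same in all 4 libraries. So these cells carried mainly the cardiac and ventricular isoforms in every library, with the atrial and slow skeletal ones at lower levels. These were not all scarce. Per kilobase Tnni1 made up 33.1% (mock) to 40.3% (cel-miR-67) of its sum with Tnni3. Myl4 made up 9.29% (hsa-miR-199a-3p) to 27.4% (cel-miR-67) of its sum with Myl3.

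**Figure D1:**
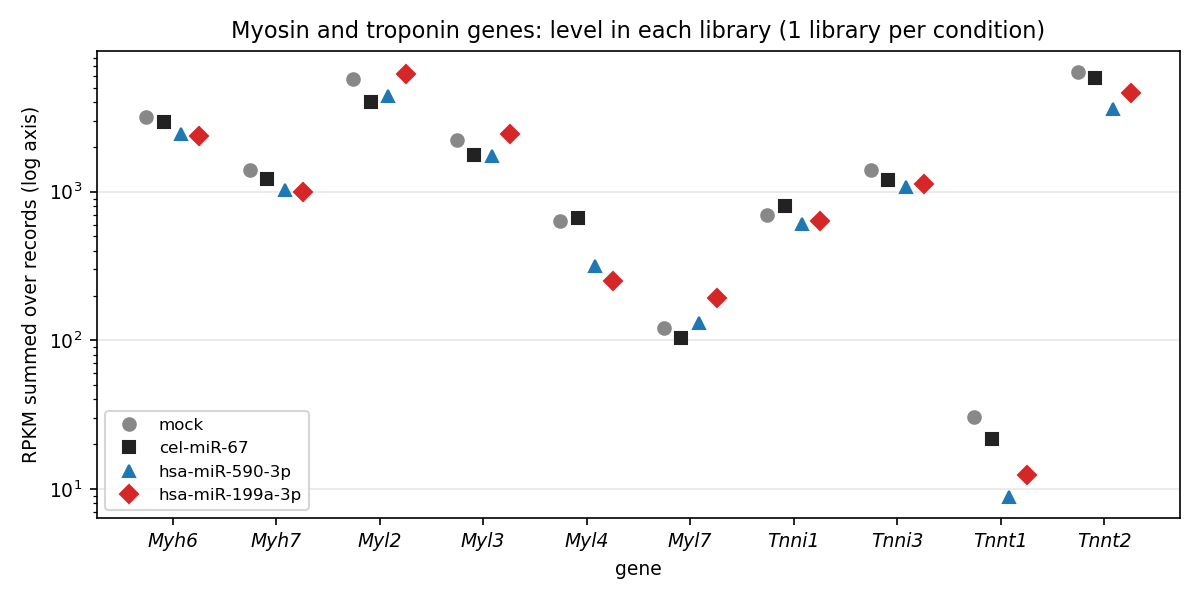
Level of each of the 10 genes in each library, as RPKM summed over transcript records on a log axis, with 1 point per library. Tnnt1 (8.86 to 30.4 RPKM) and Myl7 (104 to 192 RPKM) are the 2 lowest genes in every library, and the Myl4 and Tnnt1 points of both mimics lie below both controls.

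Most members were lower with hsa-miR-590-3p than in either control, by less than 2-fold. Of 10 members, 8 lay below both controls by some amount, where 36.6% of all 13502 genes did, and 1 lay above both, where 35.6% did. The members' median log2 ratios were -0.32 and -0.49, beside -0.00073 and -0.0058 over all genes. At least 2-fold below both controls were 2 members, Myl4 and Tnnt1, where 0.23% of all genes were, and 0 were at least 2-fold above both, where 0.356% were. With hsa-miR-199a-3p, 7 members lay below both controls (41.9% of all genes) and 2 above both (40.2%). The medians were -0.39 and -0.49, beside -0.0048 and -0.011 over all genes. Only Myl4 was at least 2-fold below both (2.34% of all genes), and 0 were at least 2-fold above (2.4%). Tnnt1, the nearest member outside the criterion there, stood at -0.90 and -1.41.

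**Figure D2:**
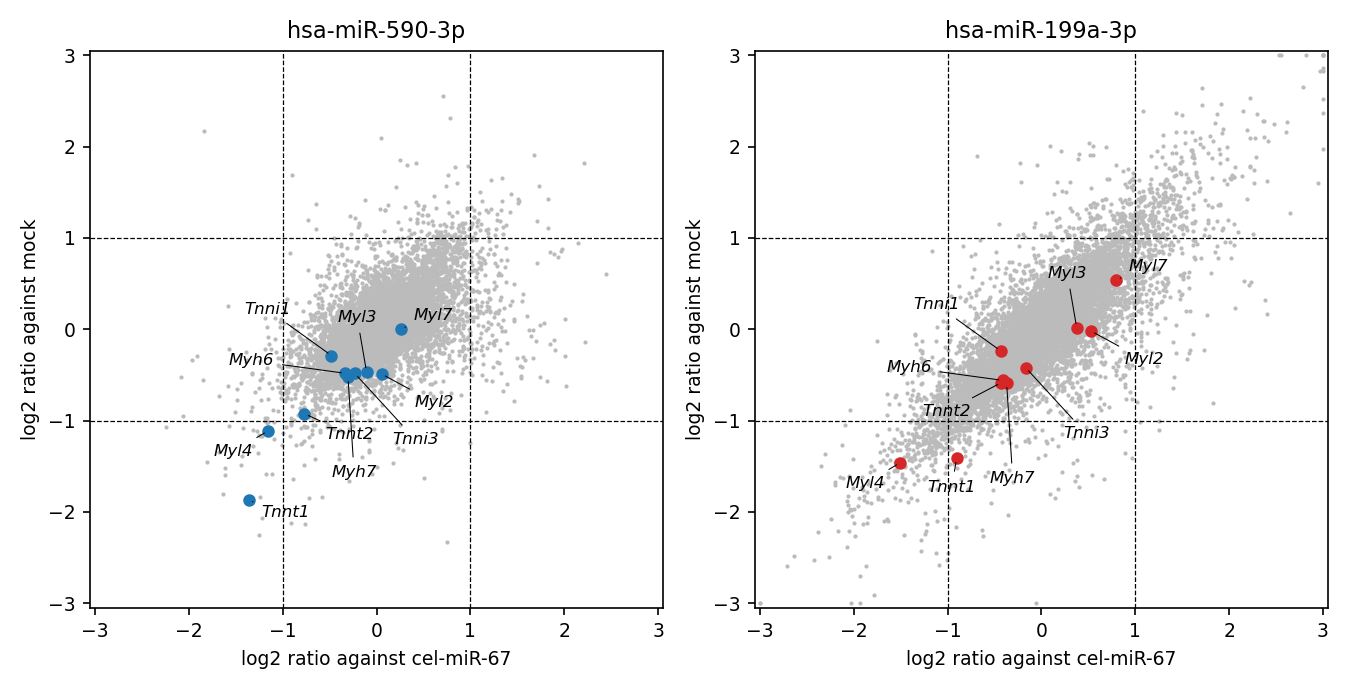
Log2 ratio of CPM against cel-miR-67 (horizontal) and against mock (vertical) for 13502 genes in grey and the 10 members in colour, with dashed lines at 2-fold and genes beyond the axes drawn at the edge. Myl4 lies in the lower left corner, past 2-fold against both controls, for both mimics, and Tnnt1 only for hsa-miR-590-3p.

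The size of these shifts depended on what the libraries were scaled by. Genes of the same cells were lower too: of 12 cardiomyocyte marker genes other than the members, 11 lay below both controls with each mimic (36.6%, then 41.9% of all genes). With hsa-miR-199a-3p 4 of the 12 markers were at least 2-fold lower (2.34% of all genes): Csrp3, the muscle LIM protein (-1.86 and -2.12), Pln, which encodes phospholamban (-1.55 and -1.43), Ryr2, the calcium release channel (-1.38 and -1.14), and Ttn, the giant spring protein (-1.13 and -1.25). With hsa-miR-590-3p 0 were. Their summed level was 34157 CPM in mock, 31969 with cel-miR-67, 24777 with hsa-miR-590-3p and 22776 with hsa-miR-199a-3p. In bulk RNA, fewer cardiomyocytes and less sarcomere RNA per cardiomyocyte cannot be told apart. When the libraries were scaled instead by 6 cardiomyocyte genes that are not members (Actc1, Actn2, Mybpc3, Tnnc1, Tpm1 and Ttn), the median of all genes shifted by 0.28 to 0.49 against the controls. Relative to those 6 genes, 3 members lay below both controls and 4 above with hsa-miR-590-3p, where 2.98% and 85.9% of all genes did. With hsa-miR-199a-3p 5 lay below and 4 above, where 15.2% and 70.3% of all genes did. Under that scaling Tnnt1 remained at least 2-fold below both controls with hsa-miR-590-3p (-1.05 and -1.38; 0.0296% of all genes), and Myl4 did so with hsa-miR-199a-3p (-1.23 and -1.01; 0.704% of all genes). Myl4 with hsa-miR-590-3p, at -0.84 and -0.62, did not. The ratios of isoforms to each other, given below, do not use any scaling between libraries.

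In all reads, shared ones included, the 2 heavy chains, the motor subunits, were lower with each mimic by nearly the same amount. The ratio of those reads hardly differed between libraries. Most Myh7 reads were shared: 215667 in mock, 213546 with cel-miR-67, 182525 with hsa-miR-590-3p and 193944 with hsa-miR-199a-3p. So far as these match Myh6 too, the counts of the 2 genes are not separate measures. Their even ratio therefore cannot show that the balance of the 2 genes was kept. Myh6, the fast alpha chain of the adult mouse heart, had 614924 reads in mock, 610770 with cel-miR-67, 512243 with hsa-miR-590-3p and 552957 with hsa-miR-199a-3p. On the scaled level the mimic libraries were the lowest of the 4, with 14491 CPM (hsa-miR-590-3p) and 13730 CPM (hsa-miR-199a-3p) beside 20236 in mock and 18262 with cel-miR-67. The log2 ratios were -0.33 and -0.48 for hsa-miR-590-3p and -0.41 and -0.56 for hsa-miR-199a-3p. Myh7, the slow beta chain of the fetal and overloaded heart, had 267053, 252048, 215707 and 234683 reads in the same order, with log2 ratios of -0.30 and -0.53, and of -0.37 and -0.59. From its uniquely placed reads alone they were -0.30 and -0.83, and -0.19 and -0.72. The cel-miR-67 library then stood at -0.53 against mock, beside -0.22 in all reads. Scaling by cardiomyocyte genes turned the sign of Myh6 against mock (0.01) and of Myh7 against cel-miR-67 (0.0091), both for hsa-miR-590-3p. Myh6 and Myh7 are neighbouring genes on chromosome 14.

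Per kilobase, the cells held 2.30 Myh6 reads for each Myh7 read in mock, 2.42 with cel-miR-67, 2.38 with hsa-miR-590-3p and 2.35 with hsa-miR-199a-3p. The mimic ratios lay between those of the controls. The ratio under hsa-miR-590-3p was 0.980 times that of cel-miR-67 (interval 0.974 to 0.987) and 1.03 times that of mock (1.03 to 1.04). For hsa-miR-199a-3p it was 0.972 times (0.965 to 0.978) and 1.02 times (1.02 to 1.03). This ratio rests on reads shared between similar records. The 2 records of Myh6 held only 797 to 1095 uniquely placed reads in a library, and Myh7 15.3 to 19.2% of its own. Reads that match both Myh6 records are not placed uniquely, which left 0.13% (mock) to 0.20% (hsa-miR-199a-3p) of Myh6 reads. From uniquely placed reads alone there were 0.0157 (mock) to 0.0269 (hsa-miR-199a-3p) Myh6 reads for each Myh7 read. Their ratio is thus no measure of the balance of the 2 genes. Under the mimics it was 1.53 (hsa-miR-590-3p) and 1.71 times (hsa-miR-199a-3p) that of mock, and 1.01 and 1.13 times that of cel-miR-67. Against mock, uniquely placed reads also put Myh6 with hsa-miR-199a-3p slightly higher (0.05) where all reads put it lower. The sources used here do not give how reads that match several records were divided, so the ratio of the heavy chains is less certain than those of the light chains. The sum of both genes, which such a division between them does not touch, was 29025 CPM in mock, 25799 with cel-miR-67, 20594 with hsa-miR-590-3p and 19558 with hsa-miR-199a-3p.

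The 4 light chains, which clamp the lever arm of the myosin head, did not shift together. Each has a single record with 100% uniquely placed reads. The strongest and most even difference was that of Myl4, the essential light chain of the atrium and of the embryonic heart. It had 17852 reads in mock and 20270 with cel-miR-67, against 9607 with hsa-miR-590-3p and 8592 with hsa-miR-199a-3p. The controls lay within 1.03-fold of each other and both mimic libraries were far lower. With hsa-miR-590-3p it was 2.23-fold lower than with cel-miR-67 (interval 2.18 to 2.29) and 2.16-fold lower than in mock (2.11 to 2.22). With hsa-miR-199a-3p it was 2.84-fold (2.77 to 2.91) and 2.75-fold lower (2.68 to 2.83).

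Myl7, the regulatory light chain of the atrium, went the other way. It had 2306 reads in mock, 2126 with cel-miR-67, 2692 with hsa-miR-590-3p and 4451 with hsa-miR-199a-3p, the last being the highest of the 4 on the scaled level too (111 CPM, beside 63.6 to 76.2). With hsa-miR-199a-3p it was 1.74-fold higher than with cel-miR-67 (1.65 to 1.83) and 1.46-fold higher than in mock (1.38 to 1.53). With hsa-miR-590-3p the log2 ratio was 0.26 against cel-miR-67, and against mock it was 0.0051 with an interval of -0.08 to 0.09, so that no difference from mock was detectable. The 2 atrial light chains thus stood on opposite sides of both controls with hsa-miR-199a-3p.

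The ventricular light chains differed more between the 2 controls than most members did. Myl2, the ventricular regulatory chain, had 115518 reads in mock, 87194 with cel-miR-67, 95697 with hsa-miR-590-3p and 151192 with hsa-miR-199a-3p. Its level in cel-miR-67 was 1.46-fold below that in mock, so its log2 ratios depended on the control: 0.05 and -0.49 with hsa-miR-590-3p, 0.53 and -0.02 with hsa-miR-199a-3p. The last of these turned positive (0.096) when libraries were scaled by total counts, and also with uniquely placed reads and scaling by cardiomyocyte genes. Myl3, the ventricular essential chain, had 63661, 54642, 53620 and 85358 reads, with ratios of -0.11 and -0.47 for hsa-miR-590-3p and 0.38 and 0.02 for hsa-miR-199a-3p. Scaling by cardiomyocyte genes turned the first pair positive (0.21 and 0.03). Set against each other, hsa-miR-590-3p stood below hsa-miR-199a-3p by similar amounts in Myl2 (-0.47), Myl3 (-0.48) and Myl7 (-0.54), and above it in Myl4 (0.35).

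**Figure D3:**
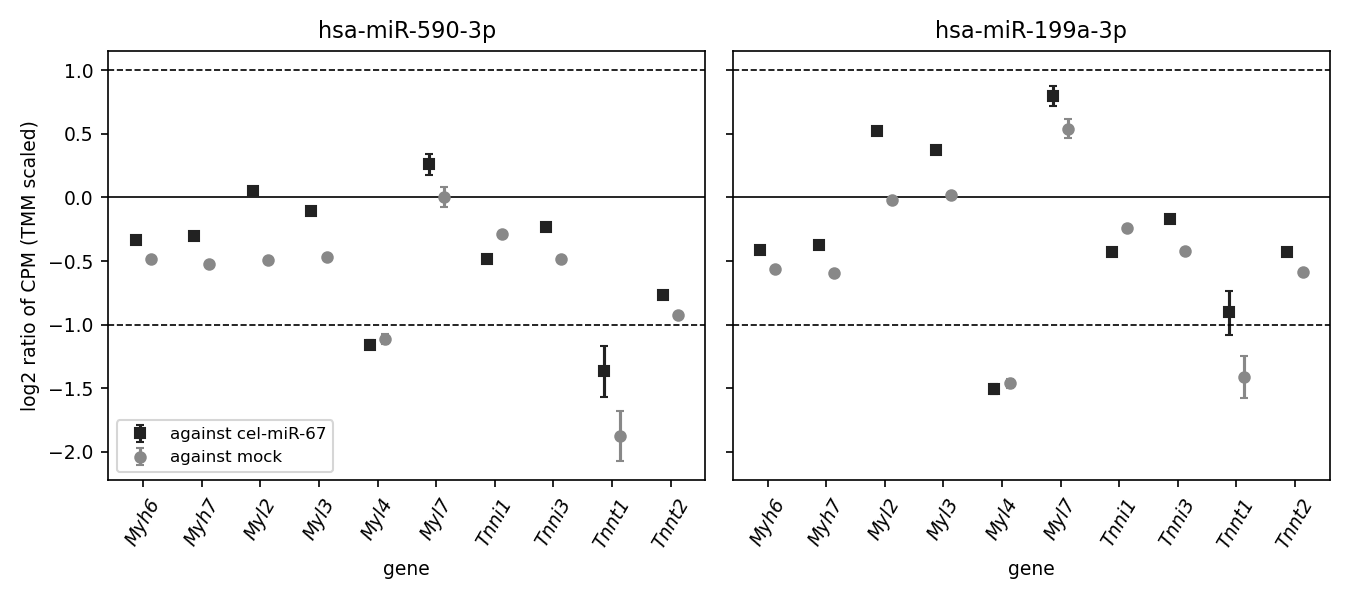
Log2 ratio of CPM of each member under hsa-miR-590-3p (left) and hsa-miR-199a-3p (right), against cel-miR-67 (squares) and mock (circles), with 95% intervals for counting error and dashed lines at 2-fold. Myl4 and Tnnt1 stand lowest in both panels, and Myl7 stands highest, at 0.80 and 0.54 with hsa-miR-199a-3p.

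Among light chains the ratio of ventricular to atrial isoforms was higher with both mimics than in either control. Summed per kilobase, Myl2 and Myl3 were 10.5 times as abundant as Myl4 and Myl7 in mock and 7.49 times with cel-miR-67. With hsa-miR-590-3p they were 13.7 times and with hsa-miR-199a-3p 19.5 times as abundant. The ratio was 1.83 times that of cel-miR-67 (1.79 to 1.87) and 1.30 times that of mock (1.27 to 1.33) with hsa-miR-590-3p, and 2.60 (2.54 to 2.66) and 1.85 times (1.81 to 1.89) with hsa-miR-199a-3p. The controls themselves differed, with cel-miR-67 at 0.712 times mock.

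That sum joined 2 pairs that went in opposite directions. The essential pair, Myl3 to Myl4, stood at 3.51 in mock, 2.65 with cel-miR-67, 5.49 with hsa-miR-590-3p and 9.77 with hsa-miR-199a-3p. Its ratio was 2.07 and 1.57 times the controls with hsa-miR-590-3p and 3.69 and 2.79 times with hsa-miR-199a-3p. The regulatory pair, Myl2 to Myl7, stood at 47.4 in mock, 38.8 with cel-miR-67, 33.6 with hsa-miR-590-3p and 32.1 with hsa-miR-199a-3p, the mimic libraries being the 2 lowest. Its ratio was 0.867 times that of cel-miR-67 (0.818 to 0.919) and 0.710 times that of mock (0.671 to 0.751) with hsa-miR-590-3p, and 0.828 (0.786 to 0.873) and 0.678 times (0.644 to 0.714) with hsa-miR-199a-3p. Under the mimics the ventricular chain thus had a larger share of the essential pair, and the atrial chain a larger share of the regulatory pair. The latter remained small: Myl7 made up 2.07% of the pair in mock and 3.02% with hsa-miR-199a-3p. Myl4 is also a chain of the embryonic heart, so the essential pair cannot tell chamber from stage.

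**Figure D4:**
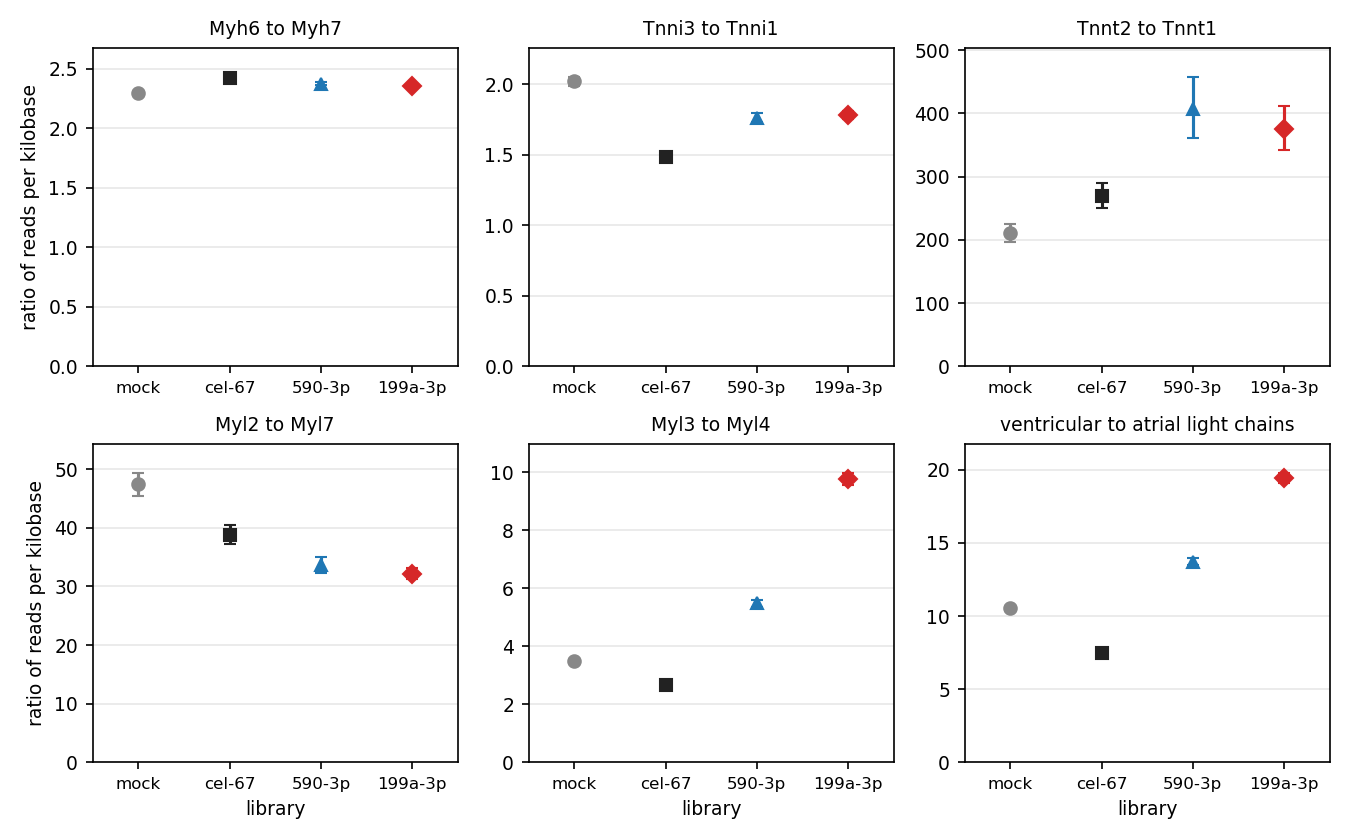
Ratio of reads per kilobase of 6 isoform pairs in each library, on linear axes from 0, with 95% intervals for counting error. The Myl3 to Myl4 ratio is highest with hsa-miR-199a-3p (9.77), the Myl2 to Myl7 ratio is lowest there (32.1), and the Myh6 to Myh7 ratio lies between 2.30 and 2.42 throughout. That last ratio rests largely on shared reads.

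Both troponin I genes, whose products hold the thin filament off at low calcium, were below both controls with each mimic. Tnni3, the cardiac form, had 37869 reads in mock, 35019 with cel-miR-67, 31508 with hsa-miR-590-3p and 37517 with hsa-miR-199a-3p, with log2 ratios of -0.23 and -0.48, and of -0.17 and -0.42. Scaling by cardiomyocyte genes turned all 4 of these positive, to between 0.0089 and 0.11. Tnni1, the slow skeletal form that the fetal heart uses, had 23836, 30009, 22719 and 26783 reads, with ratios of -0.48 and -0.29, and of -0.43 and -0.24. Its ratios against mock turned to 0.20 and 0.22 when scaled by cardiomyocyte genes. Per kilobase Tnni3 exceeded Tnni1 by 2.02 times in mock, 1.48 times with cel-miR-67, 1.76 times with hsa-miR-590-3p and 1.78 times with hsa-miR-199a-3p. Both mimics thus lay between the controls, which differed from each other more than either mimic did from them, and no shift of the fetal against the mature form was seen apart from that spread. The 2 records of Tnni1 share most of their reads, and 5.4 to 6.5% were placed uniquely.

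The troponin T genes, whose products anchor troponin to tropomyosin, were lower with both mimics, the scarce Tnnt1 more so than Tnnt2. Tnnt1, the slow skeletal form, had 898 reads in mock, 695 with cel-miR-67, 285 with hsa-miR-590-3p and 447 with hsa-miR-199a-3p. Both mimic libraries lay below both controls, and the controls differed by 1.42-fold. With hsa-miR-590-3p Tnnt1 was 2.58-fold lower than with cel-miR-67 (2.24 to 2.97) and 3.67-fold lower than in mock (3.20 to 4.20). With hsa-miR-199a-3p it was 1.87-fold (1.66 to 2.11) and 2.66-fold lower (2.37 to 2.99). Tnnt1 lies beside Tnni3 on chromosome 7, and the 2 neighbours stood far apart: -1.36 for Tnnt1 and -0.23 for Tnni3 with hsa-miR-590-3p against cel-miR-67.

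Tnnt2, the cardiac form, had 236305 reads in mock, 233358 with cel-miR-67, 144769 with hsa-miR-590-3p and 209011 with hsa-miR-199a-3p. It was the member nearest to 2-fold among those that did not reach it with hsa-miR-590-3p, 1.70-fold lower than with cel-miR-67 (1.69 to 1.71) and 1.90-fold lower than in mock (1.89 to 1.91). With hsa-miR-199a-3p its log2 ratios were -0.43 and -0.58. Its reads were spread over 10 transcript records with at most 6 uniquely placed reads, so only the sum is firm. The record of variant 3 alone took 23.4% of the reads in mock, 37.5% with cel-miR-67, 23.6% with hsa-miR-590-3p and 39.8% with hsa-miR-199a-3p. Taking this most read record alone put Tnnt2 with hsa-miR-199a-3p above mock (0.18). Per kilobase there were 211 Tnnt2 reads for each Tnnt1 read in mock, 269 with cel-miR-67, 406 with hsa-miR-590-3p and 375 with hsa-miR-199a-3p. The ratio was 1.51 times that of cel-miR-67 (1.31 to 1.74) and 1.93 times that of mock (1.69 to 2.21) with hsa-miR-590-3p, and 1.39 (1.23 to 1.57) and 1.78 times (1.589 to 2.001) with hsa-miR-199a-3p. With the most read Tnnt2 record in place of the sum, the first of these turned to 0.952 and the last became 3.02.

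Between the controls, 0 members were 2-fold apart, beside 1.98% of all genes, and their differences ran from 1.03-fold in Myl4 to 1.46-fold in Myl2. The 2 mimics, set against each other, also had 0 members 2-fold apart, beside 4.58% of all genes. The widest of these were Myl7 (-0.54 for hsa-miR-590-3p against hsa-miR-199a-3p), Myl3 (-0.48), Myl2 (-0.47) and Tnnt1 (-0.46). The heavy chains (0.08 for Myh6, 0.07 for Myh7) and troponin I genes (-0.06 for Tnni3, -0.05 for Tnni1) were the nearest. The small heavy chain differences changed sign with uniquely placed reads.

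The pattern of Myl4 over the 4 libraries was most like that of Nppa, the atrial natriuretic peptide, among the 7576 genes that averaged 20 CPM or more. Likeness was the root mean square difference of log2 CPM after centring each gene on its own mean, and it was 0.13 for Nppa, with reads of 60950 in mock, 74653 with cel-miR-67, 38049 with hsa-miR-590-3p and 37666 with hsa-miR-199a-3p. The next were Kdm7a, a histone demethylase (0.16), Clu, the secreted chaperone clusterin (0.16), Etfrf1 (0.17) and Gnao1, a G protein alpha subunit (0.19). Of Etfrf1 reads 3.8% and of Gnao1 reads 67.4% were placed uniquely. For Tnnt1 the nearest were Ppp1r3a, a glycogen-targeting subunit of protein phosphatase (0.28), Clic5 (0.32), Gpd1, a glycerol phosphate dehydrogenase (0.33), Myl4 (0.35) and Kat2b, an acetyltransferase (0.36, with 5.2% of reads placed uniquely). Over 4 libraries such likeness is a description.

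Other genes of the same machinery did not all follow the members. Of 13 other striated myosin and troponin genes, 7 were measured. With hsa-miR-590-3p 2 lay below both controls and 2 above (36.6% and 35.6% of all genes), and with hsa-miR-199a-3p 3 and 3 (41.9% and 40.2%). Tnnc1, cardiac troponin C, stood with the members at -0.37 and -0.64 with hsa-miR-590-3p and -0.04 and -0.32 with hsa-miR-199a-3p. Myh1, a fast skeletal heavy chain, stood opposite: it had 196 reads in mock, 285 with cel-miR-67, 475 with hsa-miR-590-3p and 700 with hsa-miR-199a-3p. Its log2 ratios were 0.66 and 1.06, and then 1.03 and 1.43, with 69.6% of reads placed uniquely. Myh8, the perinatal skeletal heavy chain, named after its values were seen, had 371, 663, 1088 and 1154 reads and ratios of 0.63 and 1.33, and of 0.53 and 1.23. These counts were far below those of Myh6, and reads of similar heavy chain genes may be divided between them.

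Of 9 smooth muscle and non-muscle myosin genes, 6 lay above both controls and 0 below with hsa-miR-199a-3p (40.2% and 41.9% of all genes). With hsa-miR-590-3p 2 lay above and 3 below (35.6% and 36.6%). Myh9, the most abundant heavy chain of this group, stood at -0.05 and 0.24 with hsa-miR-199a-3p and at -0.10 and 0.18 with hsa-miR-590-3p. Myl9, a smooth muscle regulatory light chain named after its values were seen, had 23650 reads in mock, 40500 with cel-miR-67, 28490 with hsa-miR-590-3p and 73813 with hsa-miR-199a-3p, with ratios of -0.59 and 0.05, and of 0.60 and 1.24. Smooth muscle or pericyte markers had a summed level of 4476 CPM in mock, 5367 with cel-miR-67, 5102 with hsa-miR-590-3p and 6396 with hsa-miR-199a-3p. Acta2, smooth muscle actin and the most read of them, stood at 0.04 and 0.34 with hsa-miR-590-3p, and Rgs5, a pericyte gene with 43 to 86 reads, at -1.12 and -1.14 with hsa-miR-199a-3p. The part of such cells in the myosin values was not tested.

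Of 10 measured partners of the thick filament, 6 lay below both controls with hsa-miR-590-3p (36.6% of all genes), none of them by 2-fold. With hsa-miR-199a-3p 7 did (41.9%), 3 of them by 2-fold (2.34%). These 3 were Mybphl, an atrial myosin-binding protein (-1.43 and -1.77, from 30 to 78 reads), Myom2, an M-band protein (-1.24 and -1.23), and Ttn, given above (2.15% of its reads, summed over records, placed uniquely). Mybpc3, cardiac myosin-binding protein C, stood at -0.43 and -0.56 with hsa-miR-590-3p. Of 13 measured thin filament genes, 7 lay below both controls with each mimic (36.6%, then 41.9% of all genes). The most read was Actc1, cardiac actin (-0.35 and -0.50, then -0.40 and -0.55).

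Among 22 measured regulators of isoform choice, 8 lay below and 8 above both controls with hsa-miR-590-3p, and 10 and 8 with hsa-miR-199a-3p, shares near those of all genes. Tead4, a factor that binds the MCAT motif, was the only gene of this list past 2-fold, with 164, 154, 239 and 436 reads in the usual order and ratios of 1.23 and 1.00 with hsa-miR-199a-3p (5.04% of reads placed uniquely). Tead1, the most abundant of the list, stood at -0.27 and -0.21 there, and at -0.13 and -0.06 with hsa-miR-590-3p. The 5 genes with the MCAT letters in their windows held members on both sides: with hsa-miR-199a-3p Myl7 and Myl3 lay above both controls and Myh6, Myh7 and Tnnt2 below.

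**Figure D5:**
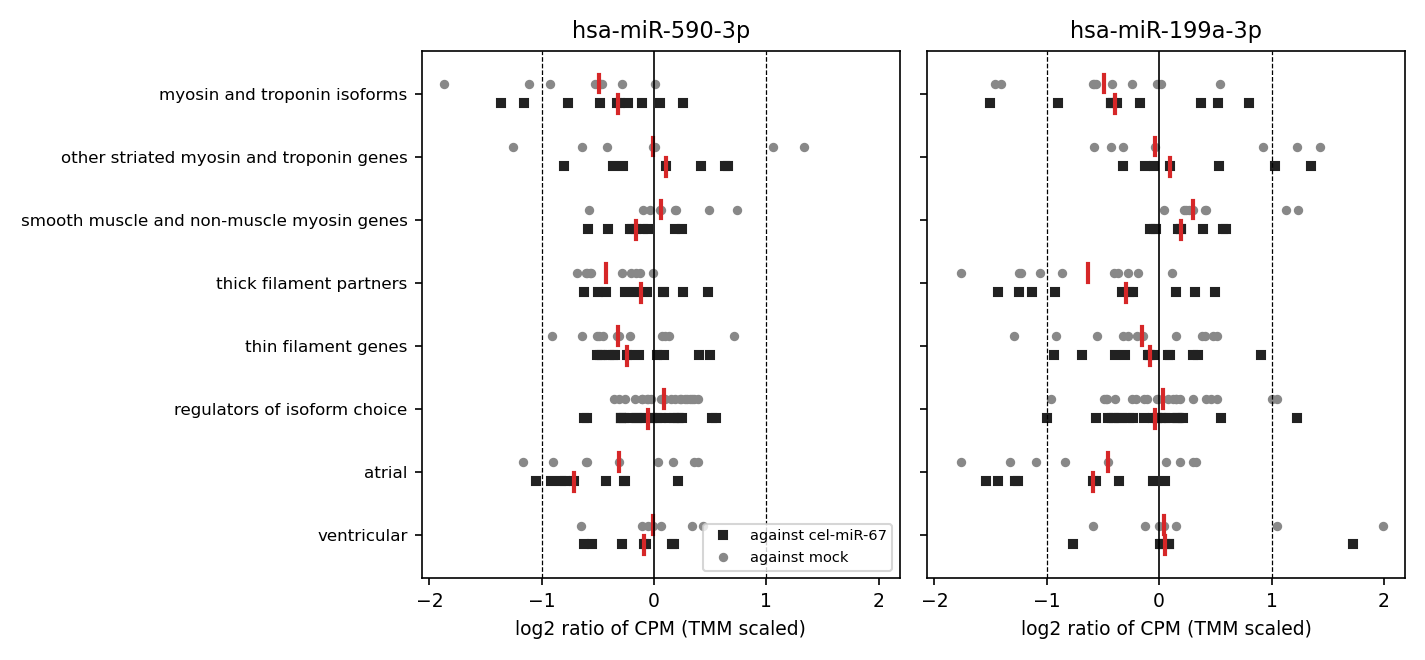
Log2 ratios of the measured genes of 8 lists under hsa-miR-590-3p (left) and hsa-miR-199a-3p (right), against cel-miR-67 (squares) and mock (circles), with medians as red bars and dashed lines at 2-fold. The median of the myosin and troponin isoforms lies at -0.32 and -0.49 (left) and -0.39 and -0.49 (right), and that of the smooth muscle and non-muscle myosin genes at 0.19 and 0.31 on the right.

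Chamber markers that are not members were also read. Of 9 measured atrial markers, 5 lay below both controls and 1 above with each mimic. Of all genes, 36.6% and 35.6% did with hsa-miR-590-3p, and 41.9% and 40.2% with hsa-miR-199a-3p. The atrial medians were -0.71 and -0.31 for hsa-miR-590-3p and -0.59 and -0.46 for hsa-miR-199a-3p. With hsa-miR-199a-3p the markers Nppa (-1.25 and -1.10), Kcnj3, an atrial potassium channel (-1.54 and -1.32, from 24 to 59 reads), and Mybphl were at least 2-fold below both (2.34% of all genes). With hsa-miR-590-3p Nppa stood at -1.05 and -0.90, near Myl4. The summed level of the atrial list was 2160 CPM in mock, 2459 with cel-miR-67, 1229 with hsa-miR-590-3p and 1071 with hsa-miR-199a-3p. Nppa made up most of it, and the markers Bmp10 and Kcna5 had 3 to 13 reads. Myl4 was lower beside this list and Myl7 was not, and the part of atrial cells in either was not tested. Of 7 ventricular markers, 3 lay below and 1 above both controls with hsa-miR-590-3p (36.6% and 35.6% of all genes). With hsa-miR-199a-3p 1 lay below and 4 above (41.9% and 40.2%). Among these Hand1, a transcription factor of the left ventricle, stood at 1.72 and 1.99 with hsa-miR-199a-3p, with 70 to 371 reads. Fhl2, the most read, stood at -0.56 and -0.65 with hsa-miR-590-3p.

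Markers of skeletal muscle cells, which carry Tnnt1, Tnni1 and Myh1, had few reads. Myf5 and Myf6, which specify such cells, had 0 reads in every library, and Myod1 and Pax7 had 0 in 3 libraries and 1 with hsa-miR-199a-3p. Myog, of the same list, had 5 to 16 reads. The 8 skeletal markers summed to 4.05 CPM in mock, 2.57 with cel-miR-67, 2.43 with hsa-miR-590-3p and 3.87 with hsa-miR-199a-3p. Tnnt1 had 29.6, 20.8, 8.06 and 11.1 CPM. The other striated myosin genes outside this list ranged from Myh3, with 1 to 2 reads, to Myl1, with 1165 to 1526 reads (34.8 to 50.2 CPM). The most read of the 8 skeletal markers, Mylpf, a fast skeletal light chain, stood at 0.42 and -0.01 with hsa-miR-590-3p and 1.36 and 0.92 with hsa-miR-199a-3p, with 26 to 81 reads. The fibroblast list, by contrast, summed to 9945 to 11695 CPM, so the cultures held RNA of other cells beside cardiomyocytes. It was highest with the mimics, at 11252 CPM with hsa-miR-590-3p and 11695 with hsa-miR-199a-3p, led by the collagen gene Col1a1 (0.20 and 0.12, then 0.31 and 0.22). Yet 5 of its 8 genes lay below both controls with hsa-miR-199a-3p (41.9% of all genes), among them Postn, which encodes periostin (-2.05 and -1.61). The macrophage list was highest in mock (19.0 CPM, beside 6.85 to 9.00 elsewhere), and its Lyz2, a lysozyme, stood at -0.76 and -2.14, then -0.03 and -1.41. The endothelial list ranged from 164 to 224 CPM, with the cadherin gene Cdh5 at 0.21 and -0.17, then -0.01 and -0.40. The nodal list ranged from 163 to 224 CPM, with the T-box gene Tbx18 at -0.21 and 0.15, then -0.70 and -0.34. The part of these cells in the members' values was not tested.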

How the data were processed

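RNA-seq libraries of 4 conditions were analysed, grouped by the treatment in the labels. Per the file headers, the deposited tables list 36065 RefSeq transcript records, each with its count of total reads, its count of reads placed uniquely, and an RPKM that the authors computed from the total reads, the record's length and the summed reads of the file. The deposited column of expression values repeats the RPKM. Total counts include reads shared with other records. The submitters' processing notes name CASAVA 1.8 and mm8 without a role, and the sources used here do not give the mapper.

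Symbols were taken by accession for 27926 records, else from the file. Counts were summed per gene and scaled by TMM (edgeR 4.0.16, R 4.3.3, scaling factors only). Genes averaging 1 CPM or more were compared. A gene was called when it lay 2-fold or more from each control, in the same direction. With 0 residual degrees of freedom no test was made. Intervals are exact conditional 95% intervals, by the binomial (Clopper-Pearson) for ratios and by the noncentral hypergeometric for changes of isoform ratios. They were computed with Python 3.11.15 (scipy 1.17.1, pandas 2.3.3, numpy 2.4.6) and tested on simulated data, and plots were drawn with matplotlib 3.10.9. Promoter and microRNA sequences are those of RefSeq for GRCm38.p6, and no other coordinates of that build are used because the files name mm8.

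The members and the gene lists were chosen with earlier results of these data known. Named genes were all members, for each of 17 lists up to 2 genes per direction past 2-fold with at least 50 reads in the higher library, or else the most read gene, and the 5 genes most like Myl4 and Tnnt1. Alternatives were other scalings (total counts, median ratios, cardiomyocyte genes), uniquely placed reads, the most read record, the authors' RPKM, other prior counts, filters and folds, 1 control alone, and reads not divided by length.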

Additional observations from a re-analysis of the deposited data

How the results depend on the processing

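No paired analysis was possible because each condition has 1 library. Only a control could be left out. Against the main counts of 2 members at least 2-fold below both controls with hsa-miR-590-3p and 1 with hsa-miR-199a-3p, scaling by 6 cardiomyocyte genes gave 1 (Tnnt1) with hsa-miR-590-3p, and both mock alone and a 1.5-fold criterion gave 2 (Myl4 and Tnnt1) with hsa-miR-199a-3p. The 1.5-fold criterion gave 3 with hsa-miR-590-3p, where Tnnt2 joined, and cel-miR-67 alone left both counts at 2 and 1. The cardiomyocyte scaling also gave 3 members below and 4 above both controls with hsa-miR-590-3p, and 4 above with hsa-miR-199a-3p, where 2.98%, 85.9% and 70.3% of all genes did. It turned the sign of 14 of 60 member ratios, uniquely placed reads turned 6 of 54, the most read record 3 of 60, total counts and the authors' RPKM 1 of 60 each (Myl2 with hsa-miR-199a-3p against mock), and median ratios and a prior count of 5 turned 0. Scaling by total counts moved the median of all genes by up to 0.11.

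Changes of isoform ratios follow in the order cel-miR-67, mock, for hsa-miR-590-3p, then for hsa-miR-199a-3p. With the most read record the change of Myh6 to Myh7 was 0.917 and 0.812, then 1.07 and 0.945, and with uniquely placed reads 1.01 and 1.53, then 1.13 and 1.71. Those uniquely placed reads were only 0.13 to 0.20% of Myh6 reads. For Tnni3 to Tnni1, uniquely placed reads gave 1.123 and 0.997, then 1.02 and 0.904. For Tnnt2 to Tnnt1, the most read record gave 0.952 for hsa-miR-590-3p against cel-miR-67 and 3.02 for hsa-miR-199a-3p against mock. Not dividing by length gave ventricular to atrial light chains 1.92 and 1.37, then 2.86 and 2.04. The light chain pairs have 1 record per gene and did not depend on shared reads. Uniquely placed reads were too few (at most 6) to give a value for Tnnt2. Depth limits Tnnt1 most, at 285 to 898 reads. The causes of these differences were not tested.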

Other observations

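The 2 transcript records of Myh6 divided its reads unevenly between libraries. Transcript variant 2 took 27.6% of Myh6 reads in mock, 39.1% with cel-miR-67, 43.0% with hsa-miR-590-3p and 33.1% with hsa-miR-199a-3p. The ratio of variant 1 to variant 2 was 2.63, 1.56, 1.33 and 2.02 in all reads and 2.68, 1.58, 1.34 and 2.04 in the uniquely placed reads, of which variant 2 had 220 to 360 and variant 1 had 457 to 735 in a library. The 2 versions of the ratio nearly matched in each library, so the one in all reads cannot count as separate evidence. Whether the variant shares were set by the few uniquely placed reads was not tested. The controls differed in the ratio of variant 1 to variant 2 more than the mimics differed from each other.

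The reads assigned to each Tnnt2 record differed between libraries. Variant 3, the most read of its 10 records, stood at 1823 CPM in mock, 2619 with cel-miR-67, 967 with hsa-miR-590-3p and 2065 with hsa-miR-199a-3p. The other 9 records summed to 5954 CPM in mock, 4358 with cel-miR-67, 3128 with hsa-miR-590-3p and 3125 with hsa-miR-199a-3p. These values rest on shared reads. The only uniquely placed ones, all in variant 3, numbered 2 in mock, 5 with cel-miR-67, 2 with hsa-miR-590-3p and 6 with hsa-miR-199a-3p. The share of variant 3 went with these few reads: 23.4% in mock, 37.5% with cel-miR-67, 23.6% with hsa-miR-590-3p and 39.8% with hsa-miR-199a-3p. So few reads cannot show a difference between records, and the uneven division should not be read as one. Whether the uniquely placed reads set that division was not tested.

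Acta1, skeletal actin, named after its values were seen, stood on opposite sides of both controls under the mimics. It had 2466 reads in mock, 2012 with cel-miR-67, 1524 with hsa-miR-590-3p and 4550 with hsa-miR-199a-3p, with log2 ratios of -0.48 and -0.91, and of 0.91 and 0.48.

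Genes of mature and of fetal or stressed cardiomyocytes were both mostly lower with the main scaling, but not when scaled by the 6 cardiomyocyte genes. Of 13 mature genes 11 lay below both controls with hsa-miR-590-3p (36.6% of all genes) and 8 with hsa-miR-199a-3p (41.9%). Of 7 fetal or stressed genes 6 and 5 did. Under the cardiomyocyte scaling 4 mature genes lay below and 6 above with hsa-miR-590-3p (2.98% and 85.9% of all genes). With hsa-miR-199a-3p 3 lay below and 5 above (15.2% and 70.3%). The fetal or stressed list then had 3 below and 2 above, and 3 and 3. Its Acta2 and Tagln are also smooth muscle or pericyte markers. The most read mature gene, the calcium pump gene Atp2a2, stood at -0.44 and -0.62 with hsa-miR-590-3p. The most read fetal or stressed gene, Ankrd1, stood at -0.36 and -0.37 there. With hsa-miR-199a-3p the members of these lists at least 2-fold lower were Pln and Ryr2 in the first and Nppa and Nppb (-1.64 and -1.75), the natriuretic peptide genes, in the second.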
